A study of Rattus norvegicus with 20 samples.

Results

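Dorsal root ganglia (DRGs) hold the cell bodies of the sensory neurons whose axons run in the sciatic nerve. The decompression group of rats had a non-constrictive silastic tube around the right sciatic nerve for 6 months, and the tube was then removed and the nerve left free for 3 months. The comparison described here sets the 3 DRG arrays of that group against the 1 DRG array of the sham operation control, and asks what still differed from sham 3 months after release. These 4 arrays were taken by their labels from the 20 arrays of the series, which cover soleus muscle and DRGs. All animals were male Sprague-Dawley rats, and the tissue was the DRGs of the operated side. Of the other DRG arrays, 3 came from rats with the tube still in place at 6 months (entrapment) and 3 from rats whose sciatic nerve had been severed 6 months earlier, with a piece removed and the stump turned away so that it could not regrow (denervation). The study used 3 rats in every group for its arrays, whereas the labels give 1 sham array, and neither source says whether it holds RNA of 1 rat or of a pool, or how long after the sham operation it was taken.

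MicroRNAs (miRNAs) are short RNAs cut from a hairpin precursor. One strand of the hairpin is usually kept and guides the silencing of messenger RNAs that pair with its seed, the stretch near the 5′ end, while the other strand, often marked with an asterisk in the older names used on this array, is mostly degraded. Ganglia are rich in miRNAs of neurons, of satellite glia and of Schwann cells, and injury of the peripheral nerve is known to alter part of them.

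The miRNAs that carry the comparison are printed here with their seed, bases 2 to 8, in capitals and the rest in lower case, each written 5′ to 3′. The sequences are the current RefSeq entries for the rat assembly GRCr8, matched by name, and 188 of the 219 tested miRNAs had one. The first set shows miRNAs that were lower in the decompression group, by at least 1 of the criteria used, at a sham signal over 50.
miR-9: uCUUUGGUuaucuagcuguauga
miR-212: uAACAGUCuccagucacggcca
miR-324-3p: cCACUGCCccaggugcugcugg
miR-126*: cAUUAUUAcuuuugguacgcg
miR-207: cUUCUCCUggcucuccucccuuu
The second set puts miRNAs that were lower beside tested miRNAs with the same seed that were not, as listed in pairs or threes.
miR-30c: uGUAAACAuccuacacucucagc
miR-30a: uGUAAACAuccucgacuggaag
miR-30e: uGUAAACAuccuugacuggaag
miR-211: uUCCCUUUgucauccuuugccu
miR-204: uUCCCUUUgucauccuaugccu
miR-222: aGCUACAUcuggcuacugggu
miR-221: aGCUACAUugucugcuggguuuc
The third set holds the miRNAs that were higher, of which miR-29a, miR-29b and miR-29c share 1 seed and miR-29c* has another, and the opposite strand of the miR-29a hairpin, which was lower.
miR-29a: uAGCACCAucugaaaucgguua
miR-29b: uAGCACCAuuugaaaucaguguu
miR-29c: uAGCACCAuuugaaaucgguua
miR-29c*: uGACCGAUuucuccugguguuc
miR-29a*: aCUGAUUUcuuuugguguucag
The last set shows miRNAs that were detected in the sham ganglia but not on any array after decompression.
miR-190: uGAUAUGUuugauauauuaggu
miR-346: uGUCUGCCugagugccugccucu
miR-872*: uGAACUAUugcaguagccuccu

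With each array scaled to its 75th percentile, most miRNAs of the ganglia did not pass a threshold against sham 3 months after release. The differences that did pass were mainly decreases under this scaling. Of the 219 tested miRNAs, 30 (13.7%) were at least 2-fold lower than sham on each of the 3 decompression arrays, and 0 (0%) were at least 2-fold higher on each. Of the 30, miR-30c, miR-9, miR-212, miR-207 and miR-126* had a sham signal of 50 or more, and the others were dimmer. A miRNA was tested if it was detected on at least 3 of the 10 DRG arrays, and 18 of the 30 were detected on fewer than 3 of the 6 decompression and entrapment arrays, so that they were tested only because they were detected on sham and denervation arrays. For these 18 the direction was largely fixed by that filter. The other 12 are 6.35% of the 189 tested miRNAs that passed without the sham and denervation arrays. limma was fitted to all 10 DRG arrays and takes the spread from the decompression, entrapment and denervation arrays. By limma, 36 miRNAs (16.4%) were downregulated and 4 (1.83%) were upregulated, at an adjusted p under 0.05. Of the 36, miR-138*, miR-190, miR-211, miR-339-3p, miR-346, miR-350, miR-374, miR-377, miR-384-3p, miR-450a and miR-872* were detected on no decompression array. On the entrapment arrays they had 0 or 1 detections, so the filter largely fixed their direction as well. The share of 16.4%, used below for comparison, includes them. Both criteria were met by 21 miRNAs (9.59%), all lower. The 4 upregulated miRNAs were miR-29a, miR-29b, miR-29c and miR-29c*.

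Values are scaled signals, that is the total gene signal of a miRNA on an array after each array was set to a common 75th percentile, on a linear scale. A floor of 2.31 was used for lower signals, which is the lowest signal of a detected miRNA, taken as the median over the arrays. The sham group had no spread of its own, so limma assumes that it varied like the other groups, and a permutation of 1 array against 3 could not give a p under 0.25. Across the 219 tested miRNAs, the median log2 difference of decompression from sham was -0.13. The direction of many differences, and which direction prevailed among the calls, depended on the scaling. limma called 56 lower and 0 higher without scaling, 22 lower and 37 higher after quantile normalization, 29 lower and 23 higher after rank-consistent loess, 18 lower and 130 higher after scaling to the median, and 48 lower and 1 higher when arrays were scaled to control features. The median over all tested miRNAs moved by -0.34, 0.18, 0.12, 0.85 and -0.20 log2 in these settings, and all values in the text are relative to the percentile scaling.

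Technical readouts of the arrays differed between the groups. On the sham array 233 of 348 miRNAs were detected, against 187 to 200 (median 190) on the decompression arrays, 183 to 186 on the entrapment arrays and 213 to 225 on the denervation arrays. The 75th percentile of the unscaled signal was 99.7 on the sham array and 75.5 to 85.0 on the decompression arrays. Of 45 control features, which measure no rat miRNA, 24 parted the decompression and entrapment arrays from the sham and denervation arrays without overlap, and the negative control read -18.0 on the sham array and 15.8 to 25.7 on the decompression arrays. After scaling, the 20 control features detected on all 10 arrays differed from sham by -0.38 to 0.61 log2 (median 0.23), and 0 of them by 1 or more. In every comparison of decompression with sham or with denervation, the group cannot be told apart from these technical differences, and no label names a batch.

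The deposited sources also name 2 groups differently. In a further deposited table of processed values, the columns named for decompression hold the values of the scanner files labelled entrapment, and the reverse. The labels of the scanner files are followed here. Under the names of the table, 24 miRNAs met the fold rule, and limma called 38 lower and 5 higher. Among the miRNAs named or called here, limma's calls of miR-211, miR-346, miR-350, miR-377, miR-379*, let-7b* and miR-29c were lost under those names (adjusted p = 0.109, 0.0727, 0.0635, 0.0587, 0.0570, 0.0827 and 0.0570), and the direct difference between decompression and entrapment changed its sign.

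**Figure D1:**
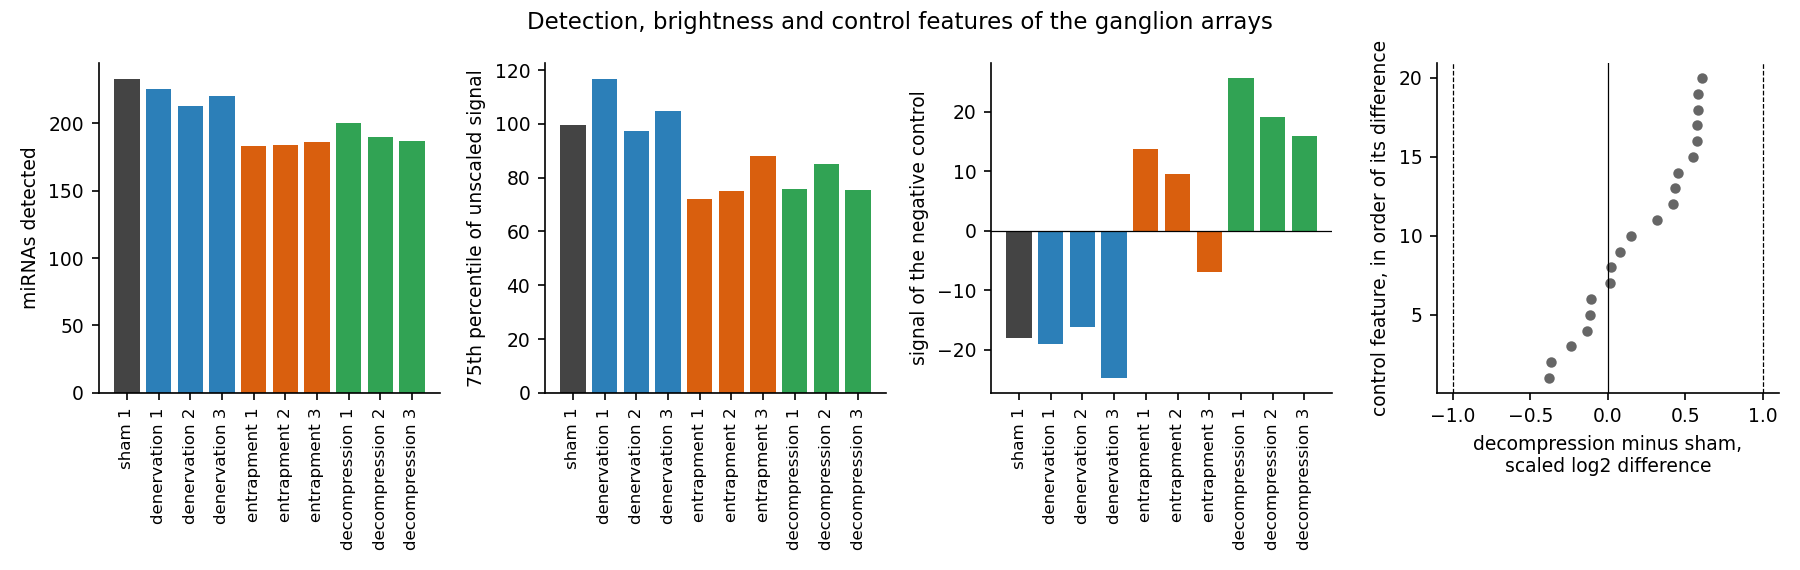
Number of miRNAs detected (of 348), 75th percentile of the unscaled signal and signal of the negative control on each DRG array (bars, coloured by group), and the scaled log2 difference of decompression from sham for each of the 20 control features detected on all arrays (points; dashed lines at 1 and -1). The decompression arrays had fewer detected miRNAs and a lower percentile than the sham array and a negative control above 0, and all 20 control features lay between -0.38 and 0.61.

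The tissue was checked against markers of its cells. The brightest miRNA on the sham array was miR-338, which is abundant in myelinating glia, followed by miR-29b, miR-125b-5p, miR-23b and miR-24. The cluster of miR-183, miR-96 and miR-182, which is typical of sensory neurons and other sensory cells, was bright, with 329, 1888 and 345 on sham. Of these 3 miRNAs 0 were called in either direction, and their decompression values were 407 to 418, 2005 to 2138 and 261 to 318. miR-122 of liver and miR-200a, miR-200b, miR-200c, miR-141 and miR-429 of epithelium were detected on 0 of the 10 DRG arrays. In whole ganglia, fewer cells of a type and less miRNA per cell cannot be told apart.

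miR-9 and miR-324-3p were the called ones among the 7 miRNAs that the study names for the DRGs, a list chosen on these samples and so no independent evidence of direction. miR-9, a miRNA of neurons and neural progenitors, had a scaled signal of 417 on sham and of 181, 173 and 171 on decompression 1, 2 and 3, so the groups lay far apart. Its log2 difference was -1.25 ± 0.04 (SD, n = 3 arrays), with a standard error of 0.16 in limma and an adjusted p of 0.000870. On the entrapment arrays it read 156, 191 and 186, and on the denervation arrays 449, 396 and 504. RefSeq has 3 copies of miR-9 in GRCr8, at chr1:142849415-142849437, chr2:15933307-15933329 and chr2:175974986-175975008, all on the plus strand. The last lies within a long non-coding RNA gene, and the array cannot tell the copies apart.

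The opposite strand of the same hairpins, miR-9*, was not called. It read 279 on sham and 279, 313 and 319 on the decompression arrays, a log2 difference of 0.12 ± 0.10 (SD, n = 3; adjusted p = 0.534 in limma).

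miR-324-3p had 230 on sham and 117, 105 and 114 on the decompression arrays. It lies at chr10:55233413-55233434 on the plus strand, within the interval of the protein-coding gene Acadvl. The log2 difference was -1.04 ± 0.08 (SD, n = 3; standard error 0.13, adjusted p = 0.000712 in limma), and 2 of 3 arrays were past 2-fold. The opposite strand, miR-324-5p, had 84.8 on sham and 88.0, 95.9 and 106 after decompression, a difference of 0.18 (adjusted p = 0.371).

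The other 5 miRNAs of that list were not called. miR-466b read 178 on sham and 70.1, 89.8 and 83.3 after decompression, a log2 difference of -1.15 ± 0.18 (SD, n = 3), lower on 3 of 3 arrays and past 2-fold on 2, with an adjusted p of 0.0734 in limma. For miR-672 the values were 141 on sham and 58.0, 72.2 and 70.1 after decompression, with a difference of -1.08 ± 0.17 (SD, n = 3; adjusted p = 0.129). Both were below sham on each array by about the same amount, while the entrapment arrays, which enter limma's estimate of the spread, ranged from 60.3 to 130 for miR-466b and from 41.6 to 103 for miR-672. Without entrapment 2 the adjusted p was 0.0207 for miR-466b and 0.0264 for miR-672, and without entrapment 1 it was 0.0454 for miR-466b.

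miR-320 had 17.7 on sham and 15.9, 13.7 and 14.9 after decompression (log2 difference -0.26, adjusted p = 0.430), a difference that turned positive under median, quantile and loess scaling. With median scaling limma called miR-320 higher than sham (0.60, adjusted p = 0.0413). miR-21, a miRNA upregulated in many injured tissues, had 954 on sham and 973, 1075 and 1051 after decompression (0.11, adjusted p = 0.574), a difference that was negative without scaling, after loess and with scaling to control features. With median scaling limma called miR-21 higher than sham (0.97, adjusted p = 0.00951). It read 2292 to 2368 on the denervation arrays. Set directly against denervation, miR-21 was lower in the decompression group by a log2 difference of -1.17 (adjusted p = 5.77e-05 in limma). miR-144, a miRNA of red blood cells, had 489 on sham and 585, 242 and 174 on the decompression arrays, so its groups overlapped (-0.75 ± 0.91, SD, n = 3; adjusted p = 0.515), and its difference turned positive under median scaling.

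miR-30c was the brightest miRNA past both criteria. It read 1258 on sham and 584, 587 and 568 on the decompression arrays, a log2 difference of -1.12 ± 0.03 (SD, n = 3; standard error 0.09, adjusted p = 4.80e-05 in limma). The 3 arrays lay close together and all below 50% of sham. RefSeq has 2 copies in GRCr8, at chr5:139634505-139634527 on the minus strand, within the interval of the protein-coding gene Nfyc, and at chr9:33253695-33253717 on the plus strand. Entrapment values were 586, 622 and 621, and denervation values were 1419, 1386 and 1387.

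The miR-30 family, whose main strands silence many of the same messengers through 1 seed, did not move as one. Its tested members include the opposite strands miR-30a*, miR-30c-1*, miR-30c-2* and miR-30e*. The count and median over the 9 are therefore not limited to miRNAs with that seed. Of its 9 tested members, miR-30c and miR-30b-5p were downregulated and 0 were upregulated by limma, and the median log2 difference over the 9 was -0.13, the same as over all tested miRNAs, of which 16.4% were called lower. miR-30b-5p had 543 on sham and 327, 324 and 318 after decompression (-0.75 ± 0.02, SD, n = 3; adjusted p = 0.00153). miR-30a, whose RefSeq sequence is 1 base shorter than that of miR-30c and differs from it at 5 of 22 positions, none in the seed, had 777 on sham and 782, 831 and 811 after decompression (0.06, adjusted p = 0.683). miR-30e had 432 and 353, 374 and 383 (-0.23, adjusted p = 0.150), and miR-30d had 196 and 165, 181 and 193 (-0.13, adjusted p = 0.402). The miR-30e gene lies beside a copy of miR-30c on chromosome 5, within a stretch of 3.06 kb.

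Other miRNAs called lower also had tested seed mates. The seed counts taken here cover the 28 of the 30 fold-rule miRNAs with a RefSeq sequence, which held 28 different seeds. Of these 28 miRNAs, 5 had a tested miRNA with a RefSeq sequence and the same seed. There were 9 such mates, and 0 of the 9 met the fold rule, against 13.7% of all tested miRNAs. All mates but miR-221 had a sham signal of 50 or more, where 4.10% of the tested miRNAs met the fold rule. The 0 of 9 is near that share. miR-30b-5p and miR-30d had no RefSeq sequence here and are not among the 9. miR-211 and miR-204 differ at 1 of 22 positions. miR-211 went from 28.1 on sham to 6.31, 4.98 and 3.58, without detection on any of the 3 arrays, and was at least 5.81-fold lower (adjusted p = 0.0195 in limma). miR-204 had 1149 on sham and 1247, 1134 and 804 (log2 difference -0.14, adjusted p = 0.684). miR-32, which had 30.8 on sham and 14.5, 10.4 and 8.95 after decompression (log2 difference -1.48, adjusted p = 0.00257), shares its seed with miR-25, miR-92a and miR-363, none of which met the fold rule.

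miR-211 lies within the interval of Trpm1 at chr1:127189353-127189374, and miR-204 within that of Trpm3, both plus strand. miR-222, a miRNA induced by injury in several tissues, had 25.1 on sham and 10.1, 7.89 and 6.77 after decompression, where it was detected on 1 of 3 arrays (log2 difference -1.62 ± 0.29, SD, n = 3; adjusted p = 0.00257). miR-221, which has the same seed and lies in the same stretch of 0.587 kb on chromosome X, had 39.2 and 37.0, 37.4 and 39.1 (-0.05, adjusted p = 0.704). miR-206, which had 42.4 on sham and 11.3, 17.0 and 14.4 after decompression, met the fold rule but not limma's threshold (adjusted p = 0.165, or 0.0149 without entrapment 2). Its seed mate miR-1 had 66.6 on sham and 33.6, 39.4 and 80.7.

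**Figure D2:**
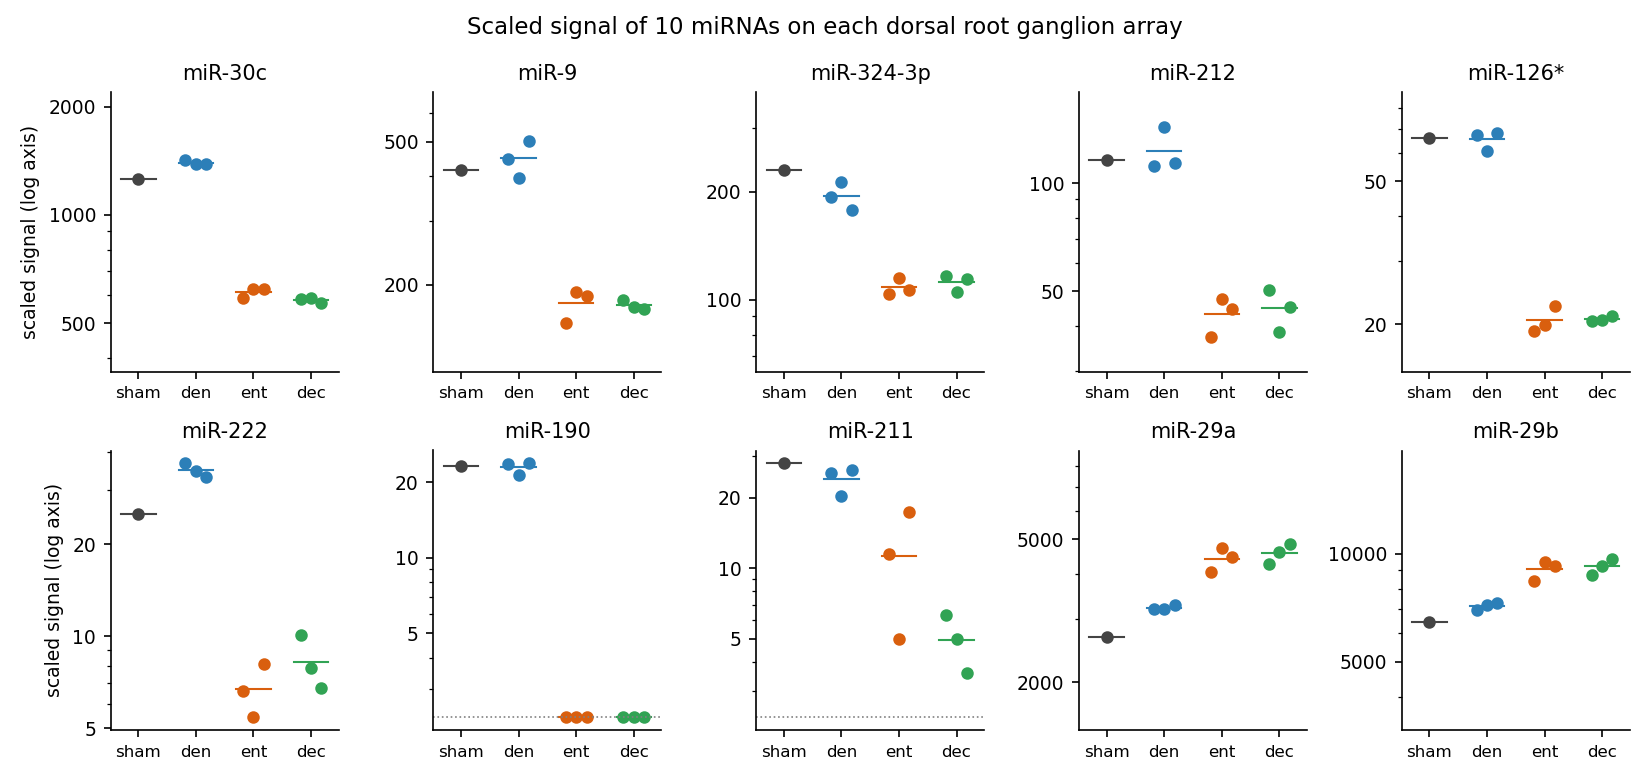
Scaled signal (log axis) of 10 miRNAs on each DRG array, with sham, denervation (den), entrapment (ent) and decompression (dec) along the x axis. Points are arrays, lines are group means and the dotted line is the floor of 2.31. The decompression arrays lay below the sham array in the first 8 panels, with miR-190 at the floor and undetected on all 3, and above it for miR-29a and miR-29b.

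Of the 13 tested neuronal miRNAs, miR-9 and miR-212 met both criteria in the lower direction, 0 were upregulated, and the median log2 difference was -0.03. This count is near the 16.4% called lower by limma and the 9.59% past both criteria over all tested miRNAs. miR-212, which neuronal activity and growth factors induce together with miR-132, had 116 on sham and 50.5, 38.6 and 45.2 on the decompression arrays. The difference was -1.38 ± 0.20 (SD, n = 3; standard error 0.21, adjusted p = 0.00238 in limma), without overlap with the denervation arrays either, which read 112, 143 and 114. It lies at chr10:60521811-60521832, plus strand. miR-124, the most neuron-specific miRNA of the list, had 716 on sham and 820, 735 and 781 after decompression (0.12, adjusted p = 0.452). miR-128 and miR-138, further neuronal markers, differed by 0.12 (adjusted p = 0.420) and -0.20 (adjusted p = 0.291).

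Of the 4 tested vascular miRNAs, miR-126* and miR-145 were downregulated, and miR-126 and miR-143 were not called, against 16.4% called lower over all tested miRNAs. miR-126*, the passenger strand of the endothelial miR-126 hairpin, had 66.0 on sham and 20.4, 20.5 and 21.1 on the decompression arrays, with a log2 difference of -1.68 ± 0.03 (SD, n = 3; standard error 0.12, adjusted p = 4.29e-05 in limma). It lies at chr3:29813182-29813202 on the plus strand, within the interval of Egfl7. miR-126 itself had 564 on sham and 482, 557 and 619, so that its arrays spread around sham (-0.04, adjusted p = 0.871). miR-145, a smooth muscle miRNA, had 48.0 on sham and 19.1, 16.6 and 24.9 (-1.27 ± 0.30, SD, n = 3; adjusted p = 0.00257), while miR-143, made from the same transcript, had 871 and 796, 968 and 1213 (0.17, adjusted p = 0.526).

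The miR-29 family, which represses collagens and other matrix genes, held every upregulated miRNA. miR-29a had 2679 on sham and 4277, 4604 and 4864 after decompression, a log2 difference of 0.77 ± 0.09 (SD, n = 3; standard error 0.12, adjusted p = 0.00238 in limma), the largest increase among the tested miRNAs. miR-29b had 6457 and 8734, 9245 and 9692 (0.51 ± 0.08, SD, n = 3; adjusted p = 0.0120). miR-29c had 1212 and 1551, 1723 and 1770 (0.47, adjusted p = 0.0282), and miR-29c* had 31.2 and 40.3, 44.7 and 45.3 (0.47, adjusted p = 0.0237).

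All 4 were higher than sham on 3 of 3 arrays and short of 2-fold. The fifth tested member, miR-29a*, went the other way, from 13.7 on sham to 2.58 and to the floor on both other arrays (-2.52 ± 0.09, SD, n = 3; adjusted p = 0.00345), with detection on 1 of 3. limma's call of miR-29a* was lost with a floor of 0.01 on the unscaled signal (adjusted p = 0.276), a pseudocount of 1 (0.0693) or quantile normalization (0.0632). The 4 increases depended on the scaling, since limma called 0 of them without scaling, 1 with scaling to control features and 2 after quantile normalization, where miR-29b did not differ from sham. The count of 4 was also 8 without decompression 1, 2 without decompression 2 or decompression 3, and 12 without entrapment 1. miR-29a and miR-29b were kept in all these leave-one-out fits.

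The miRNAs past the fold rule were mostly dim on sham. Of the 30 fold-rule miRNAs, 25 had a sham signal under 50, which is 25.8% of the 97 tested miRNAs at that level, and 5 had 50 or more, which is 4.10% of 122. The median sham signal was 23.4 over the 30 and 63.4 over all tested miRNAs. On the decompression arrays, 11 of the 30 were detected on no array, 6 on 1, 2 on 2 and 11 on all 3. Of the 30, 18 were tested only because they were detected on sham and denervation arrays, which largely fixed their direction. The shares by level are therefore not free of the detection filter. The part of detection, brightness and background of the arrays in these decreases was not tested.

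**Figure D3:**
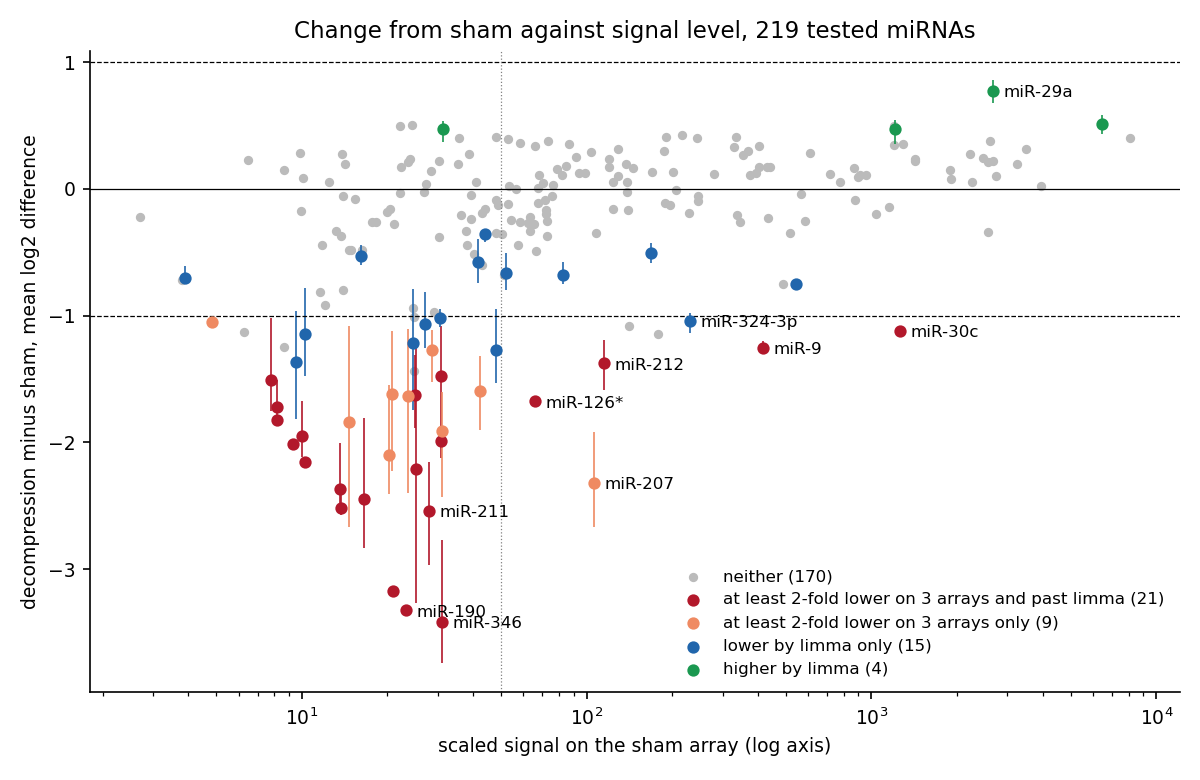
Mean log2 difference of decompression from sham (y) against the scaled signal on the sham array (x, log axis) for the 219 tested miRNAs, coloured by the criteria they met. Vertical lines span the 3 decompression arrays, dashed lines mark 2-fold and the dotted line a sham signal of 50. Of the 30 miRNAs past the fold rule, 25 lay left of the dotted line, and miR-30c, miR-9, miR-212, miR-207 and miR-126* lay right of it.

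Loss of detection ran in 1 direction. Of the 233 miRNAs detected on sham, 183 were detected on all 3 decompression arrays and 29 on none, while 0 miRNAs were detected on a decompression array and not on sham. The 29 had sham signals of 2.70 to 30.98, with a median of 9.34, and 13 of them were detected on every denervation array. Of these 29, 17 were tested and 11 met the fold rule. Without decompression 1, which had the most detected miRNAs, the count was 41.

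For the miRNAs without detection the size of a decrease is only a lower bound, set by the lowest signal of any detected miRNA on each array, the floor or the miRNA's own signal, whichever was highest. The bounds ran from 3.26-fold to 10.6-fold over the 11. miR-190 had 23.2 on sham and lay at the floor on all 3 decompression arrays and on all 3 entrapment arrays, and it had 23.6, 21.4 and 23.8 on the denervation arrays. It was at least 9.92-fold lower after decompression (adjusted p = 7.66e-08 in limma), and lies at chr8:76732228-76732249 on the minus strand, within the interval of Tln2. miR-872* was at least 8.94-fold lower (adjusted p = 4.43e-05), from 20.9 on sham.

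miR-346, within the interval of the glutamate receptor gene Grid1, was at least 10.6-fold lower, from 30.98 on sham (adjusted p = 0.0235, or 0.0549 without decompression 3). miR-450a and miR-350 were at least 5.15-fold and 5.41-fold lower (adjusted p = 0.0130 and 0.0281). The call of miR-350 was lost without decompression 2 (adjusted p = 0.0693), decompression 3 (0.0655) or denervation 3 (0.0502). miR-339-3p and miR-138* were at least 4.40-fold and 3.999-fold lower (adjusted p = 0.000666 and 0.00329). The bounds were 3.51-fold for miR-374 and 3.26-fold for miR-384-3p (adjusted p = 7.12e-06 and 0.000484), which were chosen after their values were seen. All of these read 30.98 or less on sham, and the spread among decompression arrays that lie at the floor is 0 by construction, which makes their p-values smaller than a measured spread would. With a floor of 0.01 on the unscaled signal, limma's calls of miR-346, miR-450a, miR-350, miR-384-3p and miR-872* were lost (adjusted p = 0.439, 0.506, 0.198, 0.139 and 0.245). A pseudocount of 1 ended those of miR-346, miR-450a and miR-350 (adjusted p = 0.109, 0.120 and 0.101). The calls of miR-190, miR-339-3p, miR-138* and miR-374 were kept in both settings.

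limma alone named 15 miRNAs as lower, without the fold rule. Those outside the lists were miR-379*, miR-532-3p, let-7b*, miR-505, miR-378, miR-664 and miR-186, with log2 differences of -1.22 to -0.35, and they were chosen after their values were seen. miR-378, the brightest of these 7 on sham, had 52.1 on sham and 29.9, 32.6 and 36.6 after decompression (-0.66, adjusted p = 0.00729). The differences of miR-378, miR-664 and miR-186 turned positive under median scaling, that of miR-532-3p after quantile normalization and that of miR-505 after loess.

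Single arrays ended 4 of these 7 calls. miR-379* (adjusted p = 0.0467) lost its call without decompression 2 (0.0802), decompression 3 (0.0537), entrapment 2 (0.0516) or any 1 denervation array (0.0620 to 0.0725), and also with the replicate block (0.119). miR-505 (adjusted p = 0.0470) lost it without any 1 of the decompression or entrapment arrays or denervation 3 (0.0557 to 0.0868). miR-186 (adjusted p = 0.0348) lost it without any 1 decompression array, entrapment 3, denervation 1 or denervation 3 (0.0549 to 0.0732). let-7b* (adjusted p = 0.0237) lost it without decompression 3 (0.0549).

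Among the 12 largest decreases past both criteria, 3 others were detected on some decompression array. miR-125a-3p had 25.1 on sham and 5.60, 2.61 and 10.9 after decompression (log2 difference -2.21 ± 1.03, SD, n = 3; adjusted p = 0.0407), and this call was lost without any 1 of decompression 1, entrapment 1, entrapment 3 or the 3 denervation arrays (adjusted p = 0.0503 to 0.0646). miR-487b, from the imprinted Dlk1-Dio3 region, had 30.8 and 8.93, 7.07 and 7.39 (-1.99 ± 0.18, SD, n = 3; adjusted p = 0.000575). miR-125b* had 10.02 on sham and 3.15, 2.31 and 2.38 (-1.95, adjusted p = 0.000109).

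The fold rule alone named 9 further miRNAs, which limma did not call. miR-207, chosen for mention after its values were seen, had the highest sham signal of the 9, with 106 on sham and 20.6, 28.2 and 16.7 after decompression (log2 difference -2.32 ± 0.38, SD, n = 3; adjusted p = 0.0875). It lies at chr5:60638847-60638869 on the plus strand, within the interval of Dnaja1. Its decompression arrays were all below sham, and its entrapment arrays ran from 9.87 to 49.7 and its denervation arrays from 33.3 to 69.4. Without entrapment 2 its adjusted p was 0.00912.

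Leaving out the same array, entrapment 2, also turned the calls of let-7d*, miR-539, miR-338* and miR-327. Each met the fold rule, and each passed limma's threshold without it (adjusted p = 0.0146, 0.0250, 0.00704 and 0.0310) but not with it (0.105, 0.145, 0.0545 and 0.0961). The others of the 9 were miR-206, miR-503, miR-322* and miR-376a*. Just inside the fold rule, the array nearest to sham had log2 differences of -1.08 for miR-503 and -1.02 for miR-376a* and miR-139-3p. Just outside it stood miR-466b at -0.99, miR-324-3p at -0.98, miR-672 and miR-377 at -0.96 and let-7b* at -0.95.

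Both strands of a hairpin come from 1 transcript, and their changes could be set side by side in 34 pairs of tested names. A strand is called brighter or dimmer by its sham signal, which also depends on the probe. The dimmer strand alone met the fold rule in 11 pairs, the brighter strand alone in 3, both in 0 and neither in 20. Among these dimmer strands, miR-138*, miR-384-3p and miR-872* were detected on no decompression or entrapment array. They were tested only through sham and denervation arrays, which largely fixed their direction. At least miR-29a* among the 11 shares this limit, so the 3 named are not all to which it applies. The 3 pairs with only the brighter strand past it were miR-9 against miR-9* and miR-30c against each of its passenger strands. The median log2 difference was -0.16 over the brighter strands and -0.75 over the dimmer ones. miR-338*, for example, had 20.2 on sham and 6.92, 3.81 and 3.94 after decompression, while miR-338 had 8098 and 10732, 11397 and 9960. Of the 28 tested names with an asterisk 9 met the fold rule (32.1%), and of the 191 without one 21 did (10.99%), against 13.7% over all tested miRNAs. Since the dimmer strand has the lower signal by definition, strand, signal level and the detection filter cannot be told apart here.

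Genes of miRNAs that lie within 10 kb of each other on 1 strand are often cut from the same transcript. Of the 28 fold-rule miRNAs with a position, 12 lay in 8 such clusters, and their 36 tested neighbours had a median log2 difference of -0.12. A cluster of 5.24 kb on chromosome X held 3 of the 12, namely miR-450a, miR-503 and miR-322*. Its other members read 24.8 on sham and 4.75, 13.1 and 12.4 after decompression for miR-542-3p (-1.44, adjusted p = 0.165), 29.1 and 8.28, 19.0 and 21.0 for miR-542-5p (-0.97, adjusted p = 0.275) and 108 and 63.2, 103 and 93.0 for miR-322 (-0.35, adjusted p = 0.439). All 6 members of this cluster had means below sham, and by limma 1 of the 6 was called, miR-450a. Over all tested miRNAs, 13.7% met the fold rule and 16.4% were called lower by limma. miR-450a and miR-503 were detected on no decompression array and on 0 and 1 entrapment arrays. They were thus tested only through sham and denervation arrays, which largely fixed their direction.

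Among the 34 tested miRNAs of the imprinted Dlk1-Dio3 region, which is active in neurons, 3 were downregulated and 0 upregulated by limma, with a median of -0.10, against 16.4% called lower over all tested miRNAs. The 3 were miR-487b, miR-377 and miR-541, and miR-539 met the fold rule without limma's threshold. miR-379* and miR-376a*, which are not on the list, lie in the same stretch of chromosome 6. miR-541 had 27.0 on sham and 15.4, 11.3 and 12.3 after decompression (-1.07 ± 0.23, SD, n = 3; adjusted p = 0.00725). miR-377 was detected on no decompression array and was at least 2.58-fold lower than its 9.53 on sham (adjusted p = 0.0422, with a positive difference after quantile normalization, or 0.0802 without decompression 2, 0.0660 without decompression 1, 0.0534 without entrapment 1 and 0.0527 without denervation 2).

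The remaining lists gave few calls, and their counts are read against the 16.4% of all tested miRNAs called lower and the 1.83% called higher. Of 9 injury-associated miRNAs, miR-222 and miR-212 were downregulated and 0 upregulated (median 0.11). Of 7 glial and myelin miRNAs, 1 was downregulated, miR-211 (median -0.14), and the glial marker miR-219-5p had 9.84 on sham and 12.1, 11.6 and 12.2 after decompression. Of 7 members of the miR-99, miR-100 and miR-125 families, miR-125a-5p, miR-125a-3p and miR-125b* were downregulated (median -0.20), while miR-125b-5p had 3937 on sham and 3812, 4009 and 4197. miR-125a-5p had 168 on sham and 118, 112 and 125 (-0.51 ± 0.08, SD, n = 3; adjusted p = 0.0146).

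Of 5 members of the miR-181 family 1 was downregulated, miR-181a* (-0.53, adjusted p = 0.0173), with a list median of -0.53. Of 6 members of the miR-23, miR-24 and miR-27 clusters 1 was downregulated, miR-24-2*, which had 82.8 on sham and 50.1, 49.3 and 55.5 (-0.68 ± 0.09, SD, n = 3; adjusted p = 0.00257). That list had a median of 0.23. The decreases of miR-181a*, miR-24-2*, miR-125a-5p and miR-30b-5p turned positive under median scaling, and that of miR-181a* also after quantile normalization. None of the 8 let-7 family members (median 0.22), 5 members of the miR-15 and miR-16 seed family (0.22) and 9 of the miR-17 to miR-92 clusters (0.03) passed limma's threshold or the fold rule.

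Markers of other cells in the ganglion were followed in the same way. Of 7 leukocyte and inflammation miRNAs 0 were called, and their summed signal was 2054 on sham and 1925 to 2205 after decompression, with miR-142-3p at 585 on sham and 512, 427 and 545. Of 9 mesenchymal and fibroblast miRNAs 0 were called (sum 1379 on sham, 1213 to 1661 after decompression). miR-199a-5p, miR-199a-3p and miR-214 differed by -0.37, -0.10 and -0.09 log2 with adjusted p of 0.488, 0.771 and 0.822. Of 5 muscle miRNAs miR-206 met the fold rule and 0 passed limma (sum 327 on sham, 315 to 401 after decompression), and miR-133a had 14.9 on sham and 12.3, 9.18 and 10.6.

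Red blood cell miRNAs spread widely among the decompression arrays. miR-451 had 2561 on sham and 3728, 1753 and 1260 on decompression 1, 2 and 3 (log2 difference -0.34 ± 0.80, SD, n = 3; adjusted p = 0.745), in the same order as miR-144 on these arrays. The summed signal of both was 3049 on sham and 1434 to 4313 after decompression. Decompression 1 lay above sham and the other arrays below it, so the groups overlapped.

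**Figure D4:**
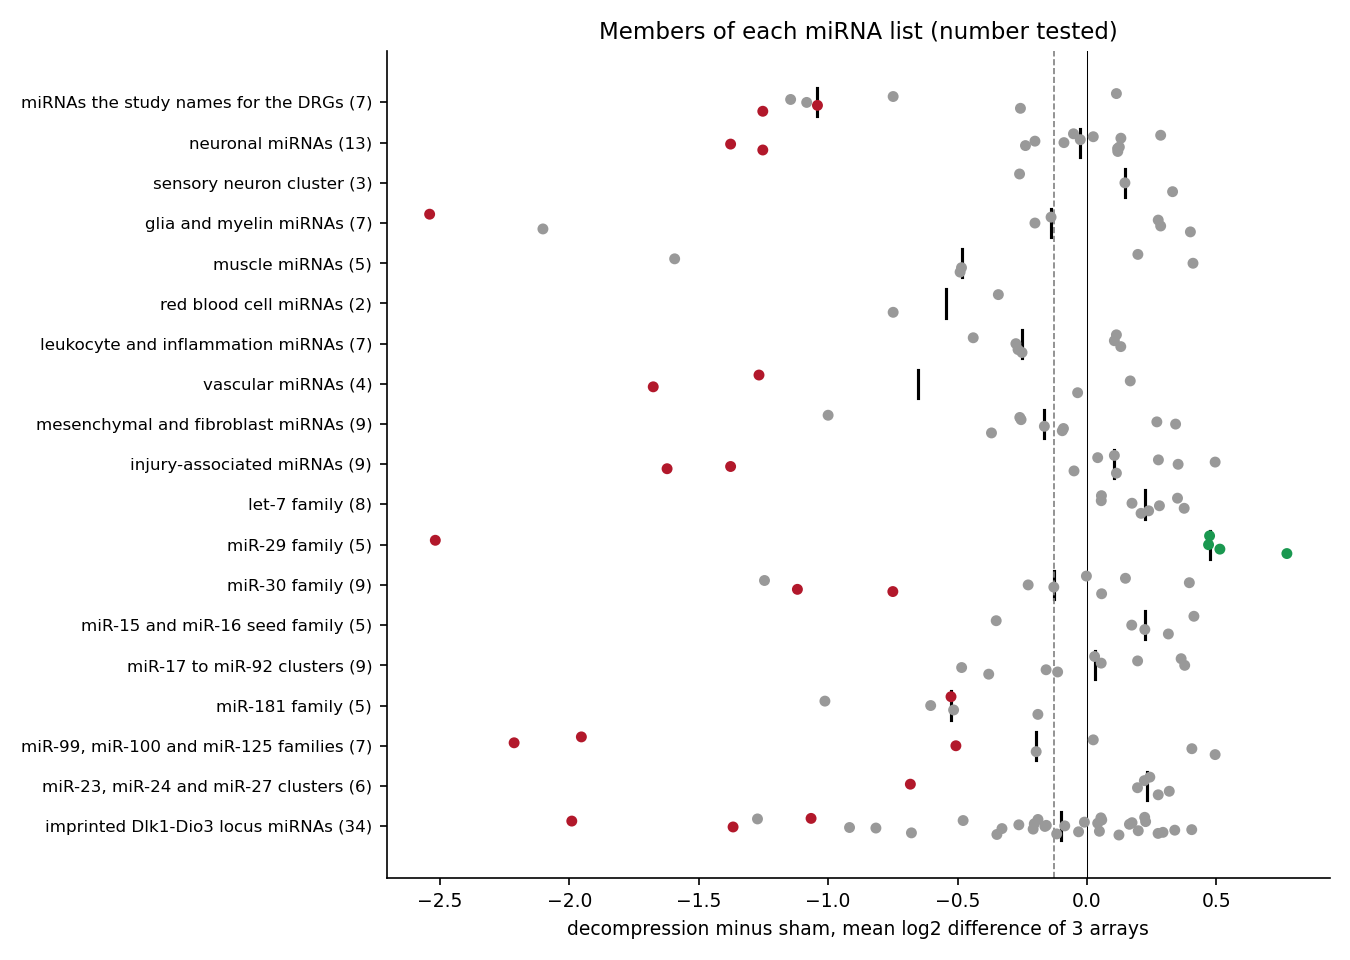
Mean log2 difference of decompression from sham for every tested member of each miRNA list (number tested in parentheses). Red points were lower and green points higher by limma, grey points were not called, black bars are list medians and the dashed line is the median of -0.13 over all tested miRNAs. Every green point belongs to the miR-29 family.

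Decompression was set directly against entrapment, which needs no sham array, although these groups differ by 3 months of time as well as by release. Of the 219 tested miRNAs, 0 (0%) differed between decompression and entrapment by limma at an adjusted p under 0.05, whereas without adjustment 1 was lower and 8 were higher at p under 0.05. The smallest adjusted p was 0.217. The log2 differences ran from -1.05 to 0.96 with a median of 0.00, and their 95% intervals had a median half-width of 0.27. For 195 miRNAs the whole interval lay within 1 log2 unit of 0, 175 of them among the 189 detected on 3 or more of the 6 arrays.

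The intervals were narrow for the bright miRNAs. Decompression minus entrapment was -0.07 log2 for miR-30c (95% interval -0.21 to 0.07), -0.02 for miR-9 (-0.28 to 0.24), 0.04 for miR-324-3p (-0.16 to 0.25) and 0.05 for miR-212 (-0.29 to 0.39). For miR-29a it was 0.05 (-0.14 to 0.24). The interval was wide for miR-207 (-1.70 to 1.02). Of the 12 fold-rule miRNAs detected on 3 or more of these 6 arrays, 7 had an interval within 1 log2 unit of 0. The other 18 were mostly or wholly undetected in both groups, 4 of them at the floor on all 6 arrays, where the floor itself makes the values equal, so that they say nothing about a difference.

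miR-211 was the 1 miRNA lower at an unadjusted p under 0.05, by -1.05 (95% interval -2.02 to -0.09, unadjusted p = 0.0357, adjusted p = 0.920), with 11.6, 5.003 and 17.4 on the entrapment arrays against 6.31, 4.98 and 3.58 after decompression. It was detected on 1 entrapment array and on 0 decompression arrays, so this size rests on signals not above background. The leukocyte miRNA miR-142-5p was among the 8 higher, by 0.61 (0.11 to 1.11, adjusted p = 0.920), with 42.1, 36.9 and 25.3 after entrapment and 59.5, 43.6 and 53.8 after decompression. Entrapment and decompression are compared with sham through the same sham array, so only their own values are set side by side here.

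Denervation gave another reference without the sham array. limma called 61 miRNAs lower (27.9%) and 19 higher (8.68%) in the decompression group than after denervation. Of the 61, 36 were among the 189 miRNAs detected on 3 or more of the 6 decompression and entrapment arrays. The rest of the 61 were tested only through sham and denervation arrays, so the detection filter largely fixed their direction. Of the 12 fold-rule miRNAs detected on 3 or more of the 6 decompression and entrapment arrays, 8 were lower than after denervation, beside 36 of the 189 such miRNAs (19%), and let-7d*, miR-206, miR-207 and miR-539 were not called. The other 18 were tested only through arrays where they were high, so their comparison with denervation is not counted. The same decompression arrays enter both comparisons, and the control features part the groups in both. Denervation itself, set against the same sham array by limma, gave 0 lower (0%; 12 at an unadjusted p under 0.05) and 1 higher (0.457%), miR-21, by 1.29 (adjusted p = 0.00511). The log2 difference from denervation was -1.27 for miR-30c (adjusted p = 1.90e-06), -1.35 for miR-9 (4.34e-05), -1.46 for miR-212 (0.000127), -1.66 for miR-126* (2.24e-06) and -0.80 for miR-324-3p (0.000221). Of the 4 upregulated miRNAs, miR-29a (0.50, adjusted p = 0.00170), miR-29b (0.36, 0.00633) and miR-29c* (0.40, 0.00563) were also higher than after denervation, and miR-29c was not called (0.12, 0.283).

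**Figure D5:**
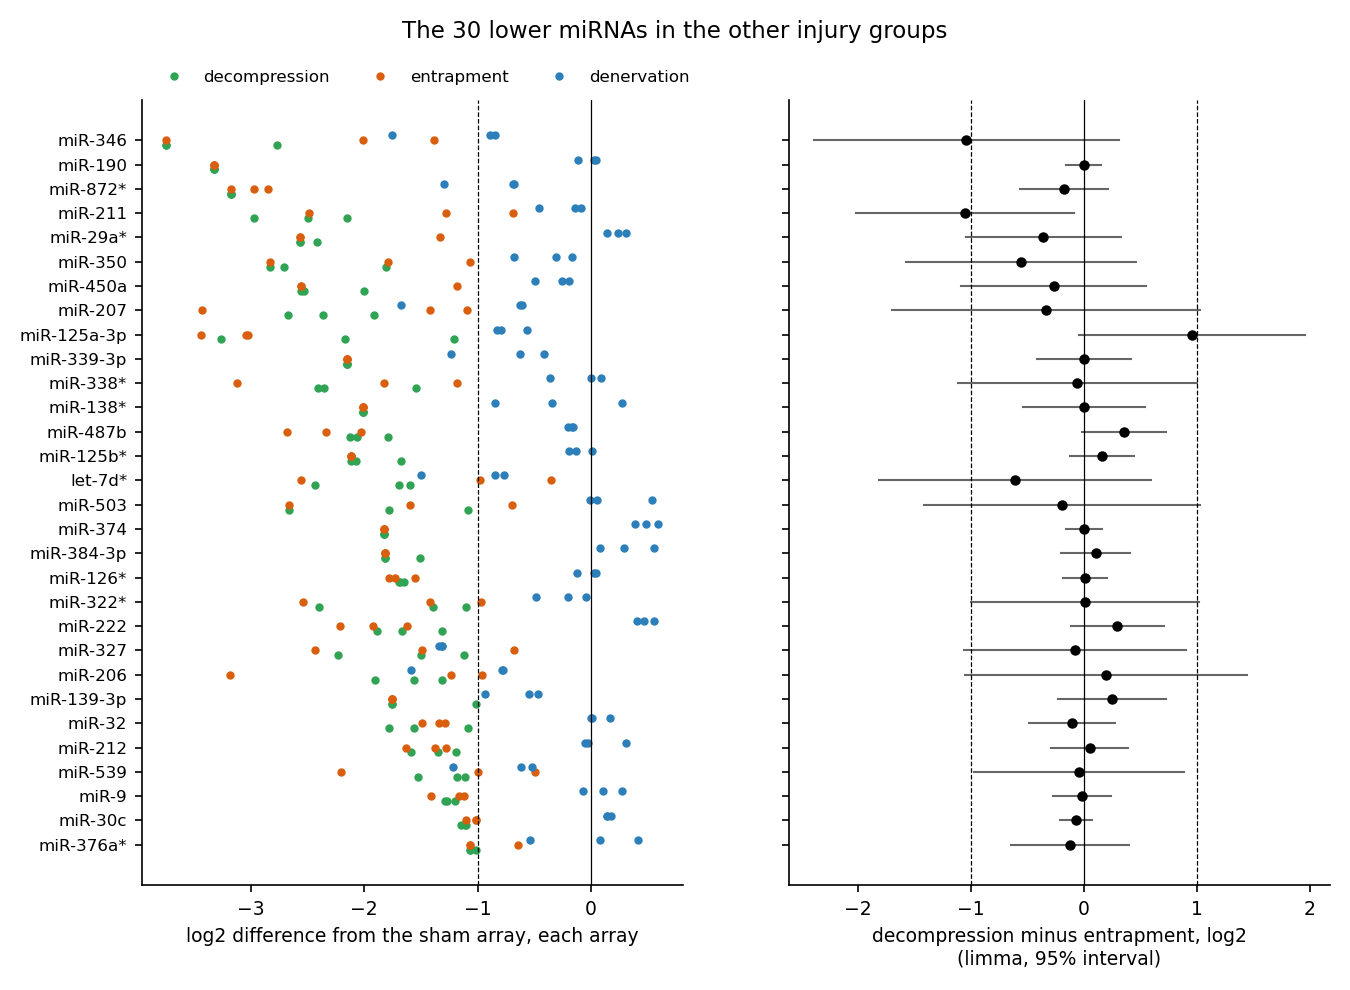
Left, log2 difference from the sham array of each decompression, entrapment and denervation array for the 30 miRNAs at least 2-fold lower on each decompression array (dashed line at 2-fold). Right, decompression minus entrapment with its 95% interval from limma (dashed lines at 2-fold), where a difference of 0 belongs to miRNAs at the floor in both groups. For 7 of the 12 miRNAs detected on 3 or more of the 6 arrays the interval lay within 1 log2 unit of 0.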

How the data were processed

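The authors hybridized total RNA to single-colour Agilent rat miRNA arrays, after ligation of pCp-Cy3 by the study's methods or amplification with Cy3-CTP per the labels. The deposited value is the total gene signal, an intensity that Agilent Feature Extraction 9.5.3 summed over background-subtracted probes, linear and not normalized between arrays, with a detection call. In a deposited table of processed values, the signals compared, those over 20, equal that intensity divided by a constant per array, within 1%.

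Of 350 miRNAs, the 348 named alike in every file were scaled to each array's 75th percentile, times the geometric mean of these percentiles. Signals under 2.31, detected or not, were set to it before log2. Testing covered 219 miRNAs, detected on 3 or more of the 10 DRG arrays. The study selected by a 2-fold change from sham, which the fold rule asks of each array. limma 3.58.1 in R 4.3.3 (two-sided, Benjamini-Hochberg over all 219, threshold 0.05) was fitted to the 10 arrays with the group as its term, with 6 residual and 2.12 prior degrees of freedom. No label says that replicates are separate animals, so p-values measure the spread between arrays, whose number limits the precision. Scripts were tested on simulated data.

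The members, lists and tests were chosen with earlier results of these data known. The miRNAs named are those the study names for the DRGs, the 12 largest changes in each direction past both criteria, called list members, markers and the 5 brightest on sham. Seed mates, opposite strands, neighbours and all others were chosen after their values were seen. Older array names were matched to RefSeq names by hand. The alternatives were other scalings, filters and floors, a pseudocount of 1, the processed values, a 1.5-fold rule, the mean of the 3 arrays, an intensity trend, only the groups compared, a replicate block and leaving out each array. Replicate numbers were not used to pair the arrays in the main fit. Of the correlations of deviations, 4 of 9 between same-number arrays were over 0.1 (range -0.12 to 0.48). Between different-number arrays 6 of 18 were (range -0.50 to 0.32), which does not settle whether the numbers mark pairs.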

Additional observations from a re-analysis of the deposited data

How the results depend on the processing

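The count of miRNAs at least 2-fold lower on each decompression array, 30, was 46 without scaling, 10 with median scaling, 14 with quantile normalization, 18 with rank-consistent loess, 7 among miRNAs detected on all arrays and 48 with a 1.5-fold rule, and 33 to 38 without 1 decompression array. The 0 higher became 35 with median scaling, 6 with quantile normalization and 1 with the 1.5-fold rule. limma's 36 lower became 56 without scaling, 18 with median scaling, 22 with quantile normalization, 16 among miRNAs detected on all arrays and 18 with only the arrays of both groups, and 31 to 44 with 1 array left out. Its 4 higher became 0 without scaling, 130 with median scaling, 9 with the percentile over miRNAs detected on all arrays, 37 with quantile normalization, 23 with loess, 7 without a detection filter, 0 with only both groups, 1 with scaling to control features, and 2 to 12 with 1 array left out. The replicate block gave 40 lower and 2 higher, and moved no other count by over 1.5 times. The cause of these shifts was not tested. Decompression against entrapment gave 0 in every setting run. With the group names of the processed table, scanner values gave 38 lower and 5 higher by limma and 24 lower by the fold rule, a setting added, like scaling to control features, after the data were seen. The 29 miRNAs that lost detection were 29 to 41 without 1 decompression array and 38 under the names of the processed table. In all 6 other scalings, 8 miRNAs kept the fold-rule call (miR-138*, miR-190, miR-207, miR-211, miR-29a*, miR-339-3p, miR-346 and miR-872*) and 8 kept limma's (miR-126*, miR-190, miR-211, miR-222, miR-339-3p, miR-374, miR-487b and miR-872*). Of these, miR-138*, miR-190, miR-211, miR-339-3p, miR-346, miR-374 and miR-872* were detected on no decompression array. They were tested only through sham and denervation arrays, which largely fixed their direction, so a call kept across scalings adds little for them. miR-30c, miR-9, miR-324-3p and miR-212 lost limma's call only with median scaling, and miR-212 also with only both groups.

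Of 54 named or called miRNAs, 41 reversed in no setting, miR-29b among them, whose difference was 0 after quantile normalization. With median scaling the log2 difference became 0.35 for miR-125a-5p, 0.10 for miR-144, 0.33 for miR-181a*, 0.50 for miR-186, 0.17 for miR-24-2*, 0.10 for miR-30b-5p, 0.60 for miR-320, 0.19 for miR-378 and 0.28 for miR-664. With quantile normalization it became 0.30 for miR-181a*, 0.58 for miR-320, 0.25 for miR-377 and 0.051 for miR-532-3p. With loess it became 0.20 for miR-320, 0.20 for miR-505 and -0.0069 for miR-21, which was -0.23 without scaling and -0.087 with scaling to control features. Signals near background limit the dim miRNAs: the authors' signal error on sham had a median of 11.6% for lower miRNAs under a sham signal of 50 and 7.51% for the brighter ones.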
